A study of Rattus norvegicus with 8 samples.

Results

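Gfap and Vim encode the intermediate filament proteins glial fibrillary acidic protein and vimentin, and their transcripts were followed in rat spinal cord below an injury. The members are 2 genes, ENSRNOG00000002919 (Gfap) and ENSRNOG00000018087 (Vim), of 32883 identifiers in the table, of which 12968 had at least 1 molecule in any library. They were chosen with their counts in injured and uninjured libraries in view. Their difference between the groups is therefore given as a description and without a test. The tissue was lower lumbar cord from Sprague Dawley rats, an outbred strain. Of the 8 libraries, 4 were labelled as lacking a spinal cord injury and 4 came from animals 4 days after a cut through one side of the cord (hemisection) at thoracic level 9. The sampled cord thus lay below the cut and was itself not cut. The labels name no age, sex or transgene, and they do not state whether a sham operation was done, whether animals were pooled, and which side of the cord was taken. The libraries were made with CEL-Seq2, which reads the 3' end of polyadenylated transcripts and gives every captured transcript a short random identifier, by which amplified copies are recognised and counted once.

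Intermediate filaments are rope-like polymers that give a cell mechanical strength. Astrocytes, the star-shaped glia that support neurons and border blood vessels, build theirs mainly from GFAP, together with vimentin. Vimentin is also made by ependymal cells, endothelial cells, fibroblasts and microglia or macrophages, so that Vim marks no single cell type of the cord. A rise of both proteins is the textbook sign of reactive astrocytes after injury of the central nervous system. The JAK-STAT3 pathway, driven by cytokines of the interleukin-6 family, is known to act on Gfap, and AP-1 factors are known to act on Vim.

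RefSeq's table for the assembly GRCr8 held a start site for both genes, and the 250 bases before each start are shown because the transcripts of both genes were higher in the injured libraries. The counts themselves were made on the older build Rnor_6.0, so these coordinates belong to GRCr8 alone. Gfap's stretch is chr10:88361662-88361911 on the minus strand, and Vim's is chr17:81577011-81577260 on the plus strand. Each is written from 5' to 3' along its gene, with matches to the motifs named next in capitals.
Gfap: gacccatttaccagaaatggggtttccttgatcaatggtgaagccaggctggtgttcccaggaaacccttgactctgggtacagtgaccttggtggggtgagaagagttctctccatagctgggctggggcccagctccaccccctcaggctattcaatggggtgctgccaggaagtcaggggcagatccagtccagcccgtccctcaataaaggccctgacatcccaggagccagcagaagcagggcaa
Vim: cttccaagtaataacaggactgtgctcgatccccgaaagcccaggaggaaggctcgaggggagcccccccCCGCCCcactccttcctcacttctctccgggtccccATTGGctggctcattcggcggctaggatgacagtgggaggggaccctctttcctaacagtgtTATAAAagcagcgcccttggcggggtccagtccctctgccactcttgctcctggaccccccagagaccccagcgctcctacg

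The stretches were searched on both strands for TTCNNNGAA, the core bound by STAT factors, and for TGANTCA, the core bound by AP-1. Neither motif was in either stretch. Of the 33469 RefSeq promoters cut to the same length, 7.7% held TTCNNNGAA and 6.3% held TGANTCA. The lack of a match says only that these letters are not in these windows. Matches to 3 general promoter elements, added after the sequences had been seen, were found in Vim and not in Gfap. The TATA box letters TATAAA began 82 bases before Vim's annotated start and were present in 12.9% of all promoters. The CCAAT box letters CCAAT, read from the opposite strand, lay 144 bases before the start (34.0% of all promoters), and the GC box letters GGGCGG, also from the opposite strand, lay 180 bases before it (30.5%). GC content was 57.6% in Gfap's stretch and 62.4% in Vim's, against a median of 51.2% over all promoters. These matches are descriptions of the letters and not mapped binding sites. No RefSeq gene overlapped either gene in GRCr8. Gfap lay between FAM187A and Kif18b, and Vim between Trdmt1 and St8sia6.

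Depth was low and uneven, from 119808 to 405537 molecules per library. The libraries with number 3 had the lowest total of either group. There, 24.6% (uninjured) and 18.5% (injured) of molecules belonged to the 10 genes with the highest counts, compared with 8.88% to 13.3% elsewhere. The top gene had 3989 to 4080 molecules in every library, however deep. The share of the top genes is thus larger where depth is low, and it does not by itself set these libraries apart. Levels, fold changes, the ratio of the 2 genes and their likeness are given below with and without the libraries numbered 3. Levels are given as CPM (counts per 1000000), with the 4159 tested genes as the total and with TMM scaling (a factor that aligns the bulk of genes between libraries). The other markers of spinal cord could not be checked, because the table gives identifiers without symbols. For the same reason the lists of filament partners, upstream ligands and receptors, reactive astrocyte genes and markers of other cell types could not be applied, and their part in the values of Gfap and Vim was not tested. In tissue samples, more cells of a type and more RNA per cell cannot be told apart.

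Gfap was captured in every library. Its deposited counts were 438, 280, 231 and 333 molecules in uninjured replicates 1 to 4 and 1181, 1183, 443 and 760 molecules in injured replicates 1 to 4. On the CPM scale the uninjured libraries stood at 1126, 1234, 2677 and 799, and the injured ones at 3263, 3161, 3452 and 3205. Every injured library was above every uninjured library. With TMM scaling, uninjured replicate 3 was far closer to the injured libraries than to its own group, which did not hold without the scaling factor (below). The lowest injured value was 1.18 times the highest uninjured one. The mean level was 1459 ± 833 CPM without and 3270 ± 128 CPM with injury (SD, n = 4 each). The fitted log2 fold change was 1.19 (standard error 0.32), which is a fold of 2.28. Without both libraries numbered 3, the uninjured mean was 1053 ± 226 CPM and the injured mean 3210 ± 51.2 CPM (SD, n = 3 each), and the fitted fold was 3.06. The lowest injured library was then 2.56 times the highest uninjured one.

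Gfap was already abundant without injury. Ordered by count within a library, it was between the 50th and the 173rd most abundant gene in uninjured libraries and between the 28th and the 34th in injured ones. The 4 injured libraries were close together. Their coefficient of variation was 3.92% (5.85% with no scaling factor), where counting alone gives 2.91% to 4.75% for a single library of these counts. The uninjured libraries spread by 57.1%, against 4.78% to 6.58% from counting alone. Without replicate 3 they spread by 21.5%, against 4.78% to 5.98% from counting alone. The difference in spread between the groups was not tested.

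Vim was much rarer in the uninjured cord. The deposited counts were 24, 22, 15 and 33 molecules in uninjured replicates 1 to 4 and 134, 160, 61 and 161 in injured replicates 1 to 4. The exact 95% Poisson interval of the count of 15 ran from 8.4 to 24.7 molecules, for counting error only. In CPM, the uninjured libraries stood at 61.7, 96.9, 174 and 79.2, and the injured libraries at 370, 427, 475 and 679. The groups did not overlap, and the lowest injured value was 2.13 times the highest uninjured one. Uninjured replicate 3 was again the highest of its group, and injured replicate 4 stood above the other 3 injured libraries. The mean level was 103 ± 49.4 CPM without and 488 ± 134 CPM with injury (SD, n = 4 each). The fitted log2 fold change was 2.40 (standard error 0.31), which is a fold of 5.26. Without both libraries numbered 3, the means were 79.3 ± 17.6 and 492 ± 164 CPM (SD, n = 3 each), and the fitted fold was 6.25.

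By count, Vim moved from between the 1092nd and the 2643rd most abundant gene in uninjured libraries to between the 233rd and the 475th in injured ones. Its spread was 48.0% among uninjured libraries, where counting alone gives 17.4% to 25.8%. Without replicate 3 the spread was 22.2%, against 17.4% to 21.3% from counting alone. It was 27.5% among injured libraries, where counting alone gives 7.88% to 12.8%.

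**Figure D1:**
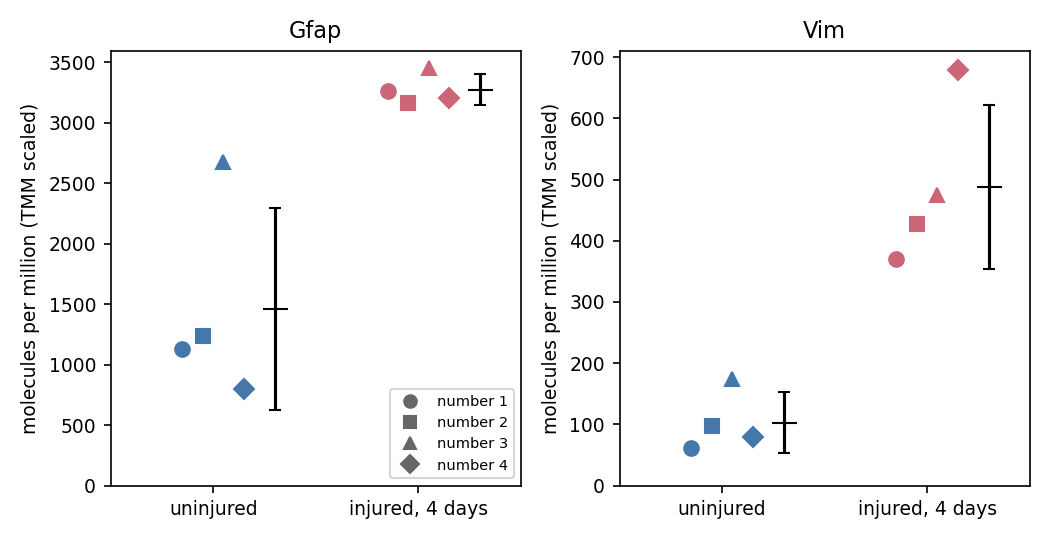
Level of Gfap (left) and Vim (right) in CPM with TMM scaling, on linear axes from 0, for 4 uninjured and 4 injured libraries; marker shapes give the library number, and the black bars show the mean ± SD of each group. All injured libraries lie above all uninjured ones for both genes, and uninjured replicate 3, at 2677 CPM of Gfap and 174 CPM of Vim, is the highest of its group.

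Both members had all injured libraries above all uninjured ones, as did 128 of the 4159 tested genes (3.08%). Since the members were chosen on this contrast, their count carries no further weight. By edgeR's quasi-likelihood test, 0.986% of the tested genes were called higher after injury (41 of 4159, Benjamini-Hochberg adjusted p under 0.05). With the library number as a block in the fit, 94 genes (2.26%) were called higher. No call is given for Gfap or Vim, since a call would test the values that chose them. Gfap's fitted fold moved most with 1 library, to 3.10 without uninjured replicate 3. By size of the fitted rise, Vim ranked 8 and Gfap ranked 72 of the 4159 genes, whose median log2 fold change was -0.01. These ranks depend on the filter on low counts. When all 12968 genes with a molecule were kept, Vim ranked 205 and Gfap ranked 1666.

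The titles number the libraries 1 to 4 in each group, and the members were also compared within numbers. In deviations from the group means across genes, each uninjured library was most correlated with the injured library of its own number. For number 3 this was weak, at 0.17 against 0.16 with injured replicate 4. Uninjured replicate 1 with injured replicate 2 reached 0.24. For Gfap, the ratio of injured to uninjured CPM was 2.90, 2.56, 1.29 and 4.01 for numbers 1 to 4. The exact 95% counting interval was 1.10 to 1.52 for number 3 and 3.52 to 4.58 for number 4. For Vim, the ratio was 6.0, 4.41, 2.73 and 8.58 for numbers 1 to 4. Its interval was 1.54 to 5.18 for number 3 and 5.87 to 12.9 for number 4. In both genes number 3 had the smallest ratio and number 4 the largest, with number 1 above number 2. The intervals of numbers 1 and 2 overlapped in both genes. They were 2.60 to 3.24 and 2.25 to 2.93 for Gfap, and 3.87 to 9.70 and 2.81 to 7.24 for Vim. These intervals cover counting error only and do not test whether numbers differ. With no scaling factor, an alternative chosen after seeing the data, the intervals of numbers 3 and 4 were 1.28 to 1.77 and 3.16 to 4.10 for Gfap. For Vim they were 1.79 to 6.03 and 5.26 to 11.5, which overlap. The 2 genes share their libraries and scaling factors here, so the shared order is not independent between them. Over all tested genes, 10.7% were higher in the injured library of all 4 numbers, as both members were.

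**Figure D2:**
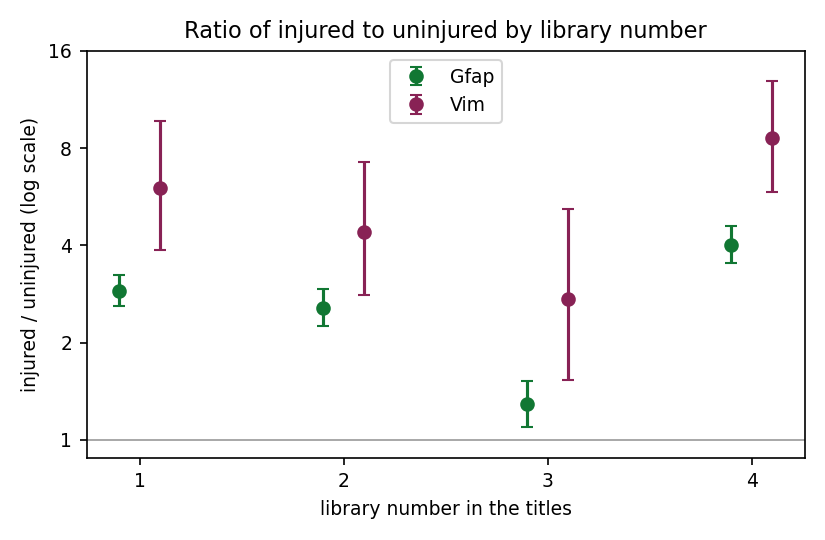
Ratio of the injured to the uninjured library of the same number, from CPM with TMM scaling, on a log axis, for Gfap and Vim; bars are exact 95% intervals that cover counting error only, and the grey line marks equal levels. Every ratio is above 1, and number 3 is the lowest for both genes, at 1.29 for Gfap and 2.73 for Vim.

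With TMM scaling, the small ratio of number 3 came with a high uninjured level and not with a low injured one. On the log2 CPM scale (prior count 3), uninjured replicate 3 lay 1.02 above its group mean for Gfap and 0.79 above it for Vim. Injured replicate 3 lay within 0.08 of its group mean for both genes. The scaling added to the height of uninjured replicate 3, whose TMM factor of 0.764 was the lowest of all libraries. Relative to all deposited molecules and with no scaling factor, Gfap stood at 1928 per 1000000 there, against 1169, 1175 and 821 in uninjured replicates 1, 2 and 4. The corresponding Vim values were 125 in replicate 3 and 64.1, 92.3 and 81.4 in the others. Replicate 3 thus remained the highest uninjured library for both genes without the factor. Injured replicate 3 was then the lowest injured library for Gfap, at 2894 against 3291, 3124 and 2953 in replicates 1, 2 and 4. For Vim it was not the lowest, at 399 against 373, 422 and 626. Uninjured replicate 3 was also the shallowest library, and the part of depth in its level was not tested.

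The ratio of the 2 genes within a library needs no scaling. CEL-Seq2 counts 1 tag per captured transcript, so counts were not divided by length, but capture can differ between genes and only the change in the ratio is compared. Uninjured replicates 1 to 4 held 18.2, 12.7, 15.4 and 10.1 Gfap molecules per Vim molecule. Injured replicates 1 to 4 held 8.81, 7.39, 7.26 and 4.72. All injured libraries were below all uninjured ones, and in both groups replicate 1 was the highest and replicate 4 the lowest. The mean was 14.1 ± 3.51 in uninjured and 7.05 ± 1.70 in injured libraries (SD, n = 4 each), a 2.0-fold lower ratio after injury by geometric means. Without both libraries numbered 3 the means were 13.7 ± 4.16 and 6.98 ± 2.08 (SD, n = 3 each), and the ratio was 1.97-fold lower. Uninjured replicate 3, which stood high for each gene alone, was inside its group in this ratio. Relative to Vim, 82.3% of the other tested genes had all injured libraries below all uninjured ones, so Gfap shared this with most genes. Relative to Gfap, the figure was 36.1%. Both genes were chosen on this contrast, and the change in the ratio is given without a test.

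**Figure D3:**
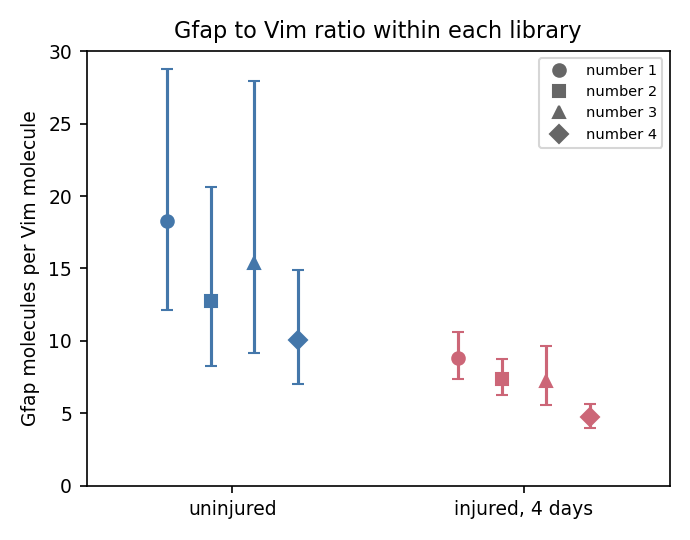
Gfap molecules per Vim molecule within each library, on a linear axis from 0, for 4 uninjured and 4 injured libraries; marker shapes give the library number and bars are exact 95% binomial intervals for counting error only. The uninjured libraries lie between 10.1 and 18.2 and the injured ones between 4.72 and 8.81.

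Molecule counts have a ceiling when identifiers are short, and the most abundant genes of these libraries met one. In each library the top gene had between 3989 and 4080 molecules, however deep the library, which is just under the number of different identifiers that 6 bases allow. The sources used here do not give the identifier length, and 6 bases were assumed. Gfap used at most 28.9% of these identifiers (injured replicate 2) and Vim at most 3.93% (injured replicate 4). Neither gene was near the ceiling. A correction for identifiers drawn more than once, assuming random use, added 5.83% to 18.0% to Gfap's count in injured libraries and 2.93% to 5.76% in uninjured ones. For Vim the correction was at most 2.02%. With corrected counts of all genes, Gfap's fitted log2 fold change moved from 1.19 to 1.30 and Vim's from 2.40 to 2.41. Corrected Gfap levels were 933, 1008, 2185 and 661 CPM in uninjured replicates 1 to 4 and 3008, 2950, 2892 and 2792 CPM in injured replicates 1 to 4. The groups still did not overlap, and uninjured replicate 3 was again the nearest to the injured libraries. The corrected ratio of Gfap to Vim no longer left a clear gap between the groups, with 10.5 in the lowest uninjured library against 10.2 in the highest injured one. Its means were 14.7 ± 3.75 and 7.88 ± 2.13 (SD, n = 4 each).

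**Figure D4:**
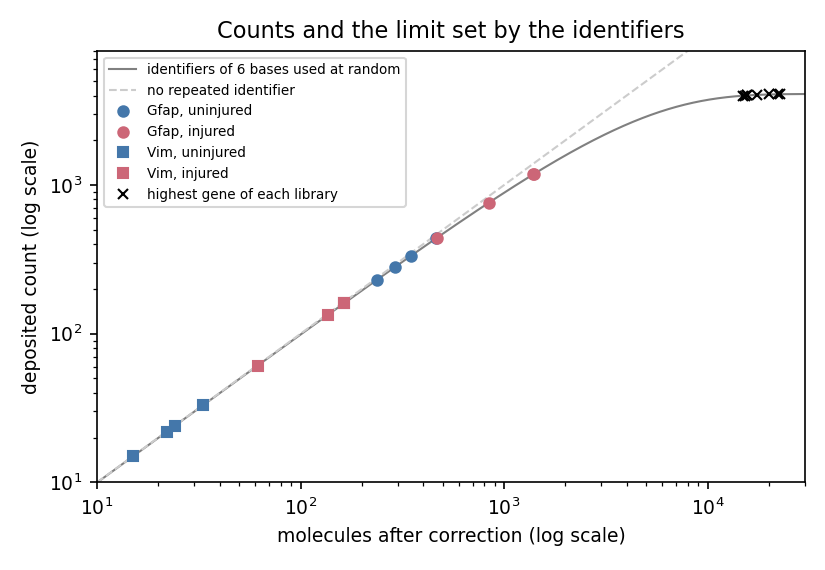
Deposited count against the count corrected for repeated identifiers, both on log axes, for Gfap (circles) and Vim (squares) in 8 libraries, with the highest gene of each library as crosses; 2 injured Vim and 2 injured Gfap points nearly coincide. The solid curve, on which all points lie by construction, is what identifiers of 6 bases used at random would give, and the dashed line has no repeats. Gfap leaves the dashed line in injured libraries, by up to 18.0% of the deposited count, while Vim stays on it.

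Over the 8 libraries, Pearson's r of Gfap's and Vim's log2 CPM was 0.92. Among 2449 other tested genes with a mean of at least 20 molecules, Vim ranked 18 in likeness to Gfap, and 26 genes reached an r of 0.9 with Gfap. Much of this r is the difference between the groups, on which both genes were chosen. With the group means removed, r was 0.73, and Vim ranked 173 in likeness to Gfap. That value rested on uninjured replicate 3, which was high for both genes. Without this library, a setting chosen after seeing the data, r of the deviations was 0.06 over 7 libraries and Vim ranked 1169 of 2449, while r of the levels was 0.95. Without both libraries numbered 3, r was 0.06 for deviations and 0.95 for levels. Within the groups, little joint movement of Gfap and Vim was thus seen apart from that library. The other libraries could hardly show any. Gfap's injured libraries spread by about as much as counting alone gives, and Vim's uninjured counts were low. All points share libraries, depth and scaling factors. The genes most like Gfap and Vim are not named, since their identifiers have no symbols here.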

How the data were processed

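The authors deposited 1 table of counts, whole numbers of molecules per Ensembl gene without normalization, for 4 injured and 4 uninjured libraries. Per the submitters' processing notes, HISAT2 2.0.4, HTSeq 0.6.0 and the build Rnor_6.0 were used. The sources used here do not give the annotation release, the strand setting or how identifiers were collapsed. A ceiling from short identifiers lowers high counts most.

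Genes were kept with edgeR's filterByExpr (minimum count 10, minimum total 15), leaving 4159. Fold changes and calls come from edgeR 4.0.16 (R 4.3.3; TMM, robust quasi-likelihood F test, two-sided, Benjamini-Hochberg over all tested genes, threshold 0.05), checked on simulated data. Standard errors were derived from F. Alternatives used DESeq2 1.42.0, limma-voom (limma 3.58.1), other scalings and filters, counts corrected for repeated identifiers (K ln(K/(K - count)), with K the number of identifiers of 6 bases), and libraries left out. Intervals were exact (scipy 1.17.1), and plots used matplotlib 3.10.9.

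The labels do not say that libraries came from separate animals, so a p-value reflects only how these libraries vary. Same-numbered libraries had correlations across genes of 0.17 to 0.45, against -0.39 to 0.24 for different numbers, so the ranges overlapped. Numbers were used as pairs in the block fit and in the ratios by number. This pairing came from the data and not from a stated design. The main fit, its calls and the group means did not use it. The members and lists were chosen with earlier results of these data known. Besides Gfap and Vim, whose symbols came with the choice of members, the rule for named genes covered list members past the threshold or most abundant, and the 5 genes with a symbol most like each. No other gene could be named, since 0 of 47357 RefSeq entries had an Ensembl identifier.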

Additional observations from a re-analysis of the deposited data

How the results depend on the processing

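Gfap and Vim were higher in injured libraries in all 18 alternatives, and each log2 fold change stayed within 1 pooled SD of its main value. For Gfap that SD itself holds the high value of uninjured replicate 3, so the limit is wide. Leaving out 1 library gave 0.97 to 1.63 for Gfap and 2.19 to 2.63 for Vim. With the replicate block they were 1.33 and 2.43. Without both libraries numbered 3 they were 1.61 and 2.64. The log2 change of the Gfap to Vim ratio, -1.0, was -1.15 to -0.82 with 1 library left out and -0.90 with corrected identifiers. The count of called genes, 41, was 110 with the replicate block (94 higher, 16 lower), 98 (94 higher, 4 lower) when all genes with a molecule were kept, 62 without both libraries numbered 3 (61 higher, 1 lower), and 23 to 77 with 1 library left out; the lowest came without uninjured replicate 1 or 4 and the highest without uninjured replicate 3. The causes of these moves were not tested. The gene lists gave no value, for want of symbols. In Gfap, Vim and their ratio, no library passed Dixon's 95% limit for a group of 4; the nearest was Gfap in uninjured replicate 3, whose gap to the next library was 0.769 of the range. Vim's uninjured counts of 15 to 33 molecules limit the precision of its fold change.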
